A study of Mus musculus with 3 samples.

Results

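The genes described here are the 10 genes of MHC class II presentation H2-Aa, H2-Ab1, H2-Eb1, H2-DMa, H2-DMb2, H2-Oa, H2-Ob, Cd74, Ciita and Ctss. They were fixed by name among 22907 named genes, with earlier results of these data known. Every array probe whose RefSeq transcript belonged to one of them was taken, 15 of 56605 probes in all. All 15 probes were well above background on all 3 arrays, so no member was lost to a filter on dim probes. RNA came from splenic tumours of male mice at 10 weeks of age, and the protocol speaks of cells taken from the spleen. The LSD1 × p53+/− genotype was represented by the 2 tumours numbered 2 and 3, here LSD1 tumour 2 and LSD1 tumour 3, and the p53+/− genotype by 1 tumour, the p53 tumour. All 3 tumours thus carried p53+/−. LSD1, a histone demethylase, is the product of Kdm1a, and the labels give neither the form of the LSD1 element, nor a promoter that drives it, nor a mouse strain. Whether a tumour's number stands for an animal or a cell line is not stated, and no treatment was given. RNA of each tumour was labelled with Cy3 and hybridised to 1 array. The design sets the LSD1 tumours against a p53+/− tumour without it.

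MHC class II molecules display peptides from endosomes to CD4 T cells, and in the spleen they are made mainly by B cells, dendritic cells and macrophages. The classical molecules pair an alpha and a beta chain, as H2-Aa with H2-Ab1, and H2-Eb1 is the beta chain of the second mouse class II molecule. Cd74, the invariant chain, blocks their groove until the protease cathepsin S, encoded by Ctss, trims it. H2-DM, with H2-DMa as its alpha chain and H2-DMb2 as a beta chain, then exchanges the remaining fragment for peptide. H2-O, a dimer of H2-Oa and H2-Ob best known from B cells, restrains H2-DM. Ciita is the coactivator that is recruited to class II promoters by factors bound at their X and Y boxes and that switches these genes on.

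Promoter windows from RefSeq (build GRCm38.p6, 250 bases before to 50 after the annotated start) covered 7 of the 10 members. They are shown because the X and Y boxes are where the factors that recruit Ciita bind. A few short motifs were searched on both strands: the Y box core ATTGG, the X1 box core ACNGATG, the X2 box core TGACG and the core of the interferon response element (GAAA, any 2 bases, GAAA), where N is any base. In the 80-base stretches below, each read 5′ to 3′ on the strand of its gene, capitals mark these matches. The stretches are chr17:34305757-34305836 (plus strand) for H2-Eb1, chr17:34145109-34145188 (plus) for H2-DMb2, chr17:34287854-34287933 (minus) for H2-Aa, chr17:34238795-34238874 (plus) for H2-Ob, chr17:34092269-34092348 (plus) for H2-Oa and chr3:95526696-95526775 (plus) for Ctss.
H2-Eb1: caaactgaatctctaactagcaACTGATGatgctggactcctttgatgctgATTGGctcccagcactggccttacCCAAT
H2-DMb2: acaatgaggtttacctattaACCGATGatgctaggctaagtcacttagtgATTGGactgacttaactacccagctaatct
H2-Aa: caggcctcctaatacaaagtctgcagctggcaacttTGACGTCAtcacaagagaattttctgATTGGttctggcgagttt
H2-Ob: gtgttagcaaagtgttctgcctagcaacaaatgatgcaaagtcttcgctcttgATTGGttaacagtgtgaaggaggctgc
H2-Oa: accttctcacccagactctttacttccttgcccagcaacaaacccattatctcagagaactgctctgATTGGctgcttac
Ctss: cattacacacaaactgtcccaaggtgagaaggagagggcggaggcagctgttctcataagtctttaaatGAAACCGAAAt

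A Y box core on the gene's own strand was present in 6 of the 7 members with a window. Its first base was at position -59 in H2-Eb1, -90 in H2-DMb2, -48 in H2-Aa, -57 in H2-Ob and -43 in H2-Oa, counted from the annotated start. In H2-DMa it was at -198 of the second of the gene's windows, and the Ctss window held no match to these letters. Of all 32851 windows, 37.4% held this core on either strand. In H2-Eb1 and H2-DMb2 an X1 box core preceded the Y box core by 22 and 23 bases. Such a pair on one strand, 5 to 40 bases apart, was found in 85 windows, 0.259% of all. H2-Eb2 and H2-DMb1, the neighbouring class II genes outside the 10, also held it, with 22 and 23 bases between. X1 box cores outside such a pair began at -137 in H2-Oa, at -206 in Ctss and, on the opposite strand, at -232 in H2-Aa. Only exact matches to the letters were counted, so boxes with other letters are missed. Across all windows 9.85% held an X1 box core and 20.8% an X2 box core. In H2-Aa the X2 core and its reverse complement overlap, which gives the longer run of capitals. The Ctss window held the interferon response core at -21, as did 3.44% of all windows. These matches describe letters in a window, and whether a factor binds there was not measured. The motif cores were chosen after the data were seen, so the shares of windows are a description and not a test.

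**Figure D1:**
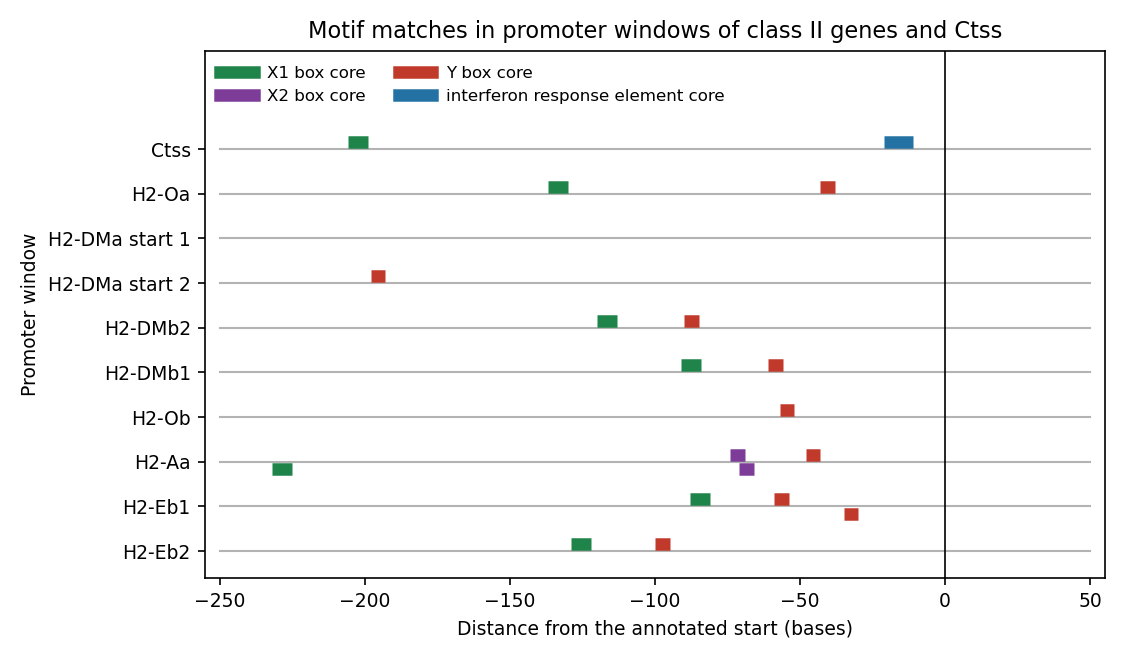
Matches to the 4 motif cores by distance in bases from the annotated start, in the promoter windows of 7 members and of H2-DMb1 and H2-Eb2. Marks above a line lie on the gene's strand and marks below on the opposite strand, and the vertical line is the start. On the gene's strand, the Y box core of H2-Eb1, H2-DMb2, H2-Aa, H2-Ob and H2-Oa starts between -90 and -43, and H2-Eb1 has another on the opposite strand at -35 to -31.

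A level is the log2 of a probe's signal over the 75th percentile of its array, so 0 is that percentile and 1 unit is a doubling. Between 51.5% and 55.6% of the non-control spots were well above background, none was saturated, and 300 probes printed in 10 spots had a median spot SD between 0.0387 and 0.0413 log2 within an array. That scatter is technical and leaves out the spread between animals, for which the p53 tumour offers no replicate. Slide 1, in scan 1, held the arrays of LSD1 tumour 3 and the p53 tumour, whereas that of LSD1 tumour 2 came from slide 2 and scan 2. Kdm1a itself differed from the p53 tumour by 0.65 log2 in LSD1 tumour 2 and 0.22 in LSD1 tumour 3. The value of LSD1 tumour 3 turned to -0.04 with quantile normalization, to -0.14 on the scale of the authors' value table and to -0.11 with the percentile taken over detected probes. Trp53, the gene of p53, differed by -0.59 and -0.30. The tumours of each genotype are too few for a relabelling test, whose smallest p would be 0.333.

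The measured chains of the classical molecules, H2-Aa, H2-Ab1 and H2-Eb1, were lower in both LSD1 tumours, and H2-Ea had no named probe. H2-Aa had a level of 3.58 in LSD1 tumour 2, 4.41 in LSD1 tumour 3 and 5.34 in the p53 tumour. Relative to the p53 tumour LSD1 tumour 2 was 3.39-fold lower, and LSD1 tumour 3 was 1.90-fold lower. H2-Ab1 was measured by 4 probes, which span its differences between -1.94 and -1.62 log2 in LSD1 tumour 2 and between -1.16 and -0.83 in LSD1 tumour 3. Its brightest probe, A_55_P1962747, stood at 6.32 and 7.12 in LSD1 tumours 2 and 3 and at 7.96 in the p53 tumour. The order of the tumours was the same in all 4 probes, LSD1 tumour 2 lowest and the p53 tumour highest. H2-Eb1 had levels of 6.21 and 6.91 in LSD1 tumours 2 and 3 and 7.78 in the p53 tumour, which made it 2.97-fold and 1.83-fold lower. H2-Ab1, H2-Aa and H2-Eb1 are neighbours on the chromosome, and no probe of theirs had an LSD1 tumour at or above the p53 tumour. In such bulk RNA, here and below, fewer cells of a type and less RNA per cell cannot be told apart.

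Cd74, the invariant chain that accompanies these chains out of the endoplasmic reticulum, had a level of 5.35 in LSD1 tumour 2, 6.15 in LSD1 tumour 3 and 7.19 in the p53 tumour. It was 3.59-fold and 2.06-fold lower, close to the classical chains although its gene lies on chromosome 18. Ctss, the protease that trims Cd74, did not share the pattern. Its level was 5.87 in LSD1 tumour 2, 6.42 in LSD1 tumour 3 and 6.25 in the p53 tumour, so the p53 tumour lay between the LSD1 tumours. LSD1 tumour 2 was 1.30-fold lower for Ctss. LSD1 tumour 3 was 1.13-fold higher, where quantile normalization, the authors' value table and the percentile over detected probes turned the sign (-0.19, -0.19 and -0.16 log2).

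The H2-DM chains among the 10 members differed from each other in how the LSD1 tumours compared. H2-DMa had levels of 2.04 and 2.64 in LSD1 tumours 2 and 3 and 3.07 in the p53 tumour, so it was 2.04-fold and 1.34-fold lower. H2-DMb2 stood at -0.20 and -0.29 in LSD1 tumours 2 and 3 and at 1.20 in the p53 tumour. It was 2.64-fold and 2.80-fold lower, nearly level between the LSD1 tumours. H2-DMb1, a second beta chain gene beside it that is not among the 10, was at 3.32 and 4.10 in LSD1 tumours 2 and 3 and at 4.92 in the p53 tumour. This brighter beta chain gene was 3.02-fold and 1.77-fold lower, with LSD1 tumour 2 the lowest, as for H2-DMa. Both beta chain genes are close copies, so signal may be shared between their probes, and their values are uncertain to that extent.

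Among the members, H2-Ob had the largest differences. Its probe A_66_P130916 was at 1.42 and 1.58 in LSD1 tumours 2 and 3 and at 3.64 in the p53 tumour, 4.66-fold and 4.16-fold lower. The second H2-Ob probe, A_51_P254625, was at -1.33 and -0.68 in LSD1 tumours 2 and 3 and at 1.17 in the p53 tumour, 5.66-fold and 3.59-fold lower. Its partner H2-Oa had levels of 2.62 in LSD1 tumour 2, 2.24 in LSD1 tumour 3 and 3.81 in the p53 tumour. H2-Oa was 2.29-fold and 2.96-fold lower, and with H2-DMb2 it made up the 2 of 15 probes that were lower in LSD1 tumour 3 than in LSD1 tumour 2.

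Ciita, the coactivator of the class II promoters, was lower in both LSD1 tumours by similar amounts. Probe A_66_P119948 was at 2.78 and 2.95 in LSD1 tumours 2 and 3 and at 4.73 in the p53 tumour, 3.84-fold and 3.42-fold lower. Probe A_55_P2741198 was at -0.95 and -0.74 in LSD1 tumours 2 and 3 and at 0.80 in the p53 tumour, 3.36-fold and 2.91-fold lower. Both probes placed the LSD1 tumours close together, LSD1 tumour 2 minus LSD1 tumour 3 being -0.17 and -0.21 log2, and well below the p53 tumour.

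**Figure D2:**
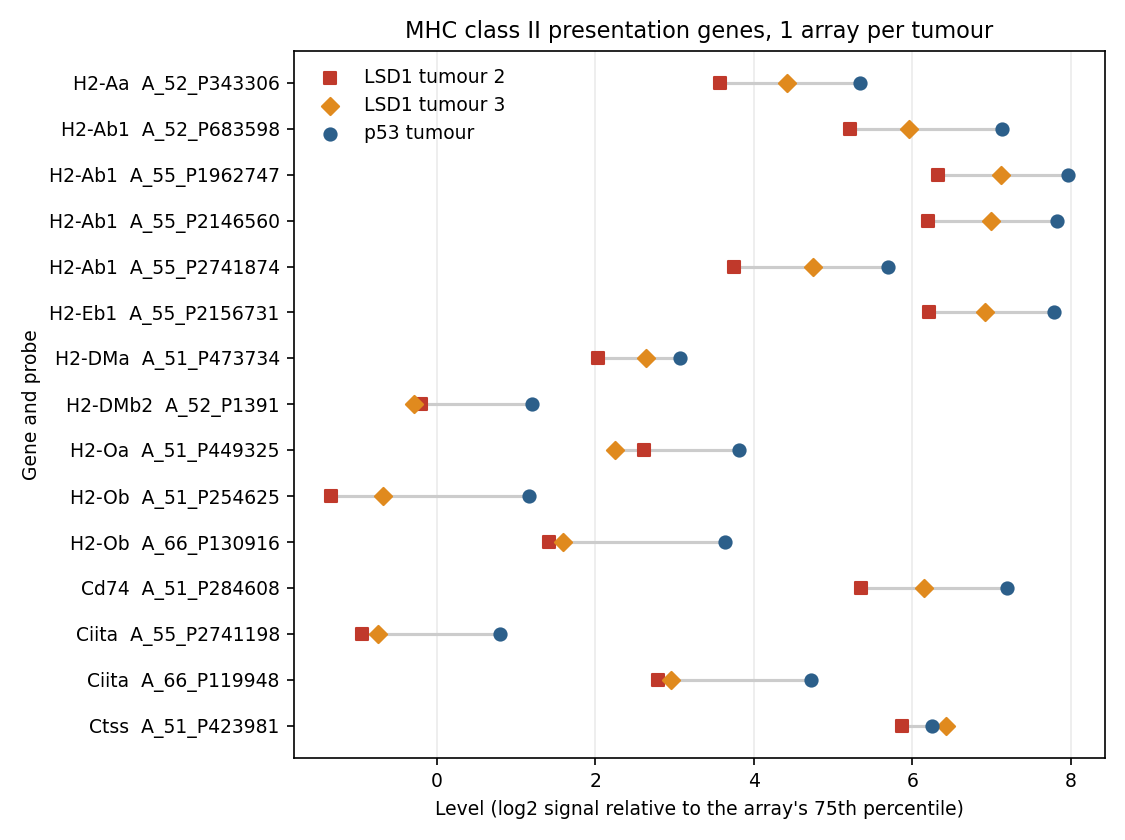
Level of each of the 15 probes (log2 signal relative to the array's 75th percentile) in LSD1 tumour 2, LSD1 tumour 3 and the p53 tumour, 1 array each, joined by a grey line. In 14 of 15 probes the p53 tumour is highest, and for Ctss it lies between the LSD1 tumours, an order that 3 other scalings change. Levels of different probes are not comparable with each other.

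By size, 8 of the 15 probes, from 6 genes, were lower by at least 2-fold in both of the LSD1 tumours, against 7.31% of the 32892 probes tested. None was at least 2-fold higher in both, a direction that held 3.63% of all probes. At any size, 14 of 15 probes were lower in both, against 32.2% of all probes. Because the members were chosen with earlier results of these data known, these shares are a description and not a test. In LSD1 tumour 2 alone 14 probes were at least 2-fold lower (13.2% of all probes), and in LSD1 tumour 3 alone 8 were (15.4%). The median member difference was -1.75 log2 in LSD1 tumour 2 and -1.04 in LSD1 tumour 3, beside 0.02 and 0.07 for all probes tested. The probes nearest the 2-fold line were Cd74 just inside, at -1.04 in LSD1 tumour 3, and an H2-Ab1 probe just outside, at -0.95. The count therefore moved with the scaling, to 13 of 15 in the authors' value table and with the percentile over detected probes. Both of these scalings shift the median of all probes, to -0.19 and -0.29 and to -0.10 and -0.26 in LSD1 tumours 2 and 3. Less the all-probe median, the members' median was -1.77 and -1.12 in LSD1 tumours 2 and 3, the same by construction under scalings that apply 1 factor to an array, and it was -1.82 and -1.46 with quantile normalization and -1.62 and -1.13 with normexp. They also move the split of probes 2-fold from the p53 tumour in both LSD1 tumours, of which 33.2% were higher as scaled here, 11.8% in the authors' value table and 15.5% with detected probes. Without LSD1 tumour 3 the count was 14, and without LSD1 tumour 2 it was 8. The latter is the same comparison as within slide 1 or with slide as a block.

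None of these differences passed the test. limma called 0 of 32892 probes at an adjusted p of 0.05, a share of 0%, and 1490 probes, 4.53%, had an unadjusted p under 0.05. Among the members 4 of 15 did, both probes of H2-Ob and both of Ciita. The mean difference over both LSD1 tumours was -2.14 log2 for the brightest H2-Ob probe (SE 0.497), -1.86 for that of Ciita (SE 0.498), -1.44 for Cd74 (SE 0.621) and -1.35 for H2-Aa (SE 0.631). limma's Benjamini-Hochberg adjusted p was 0.892 for each of the 14 probes other than Ctss, and 0.982 for Ctss (-0.10 log2, SE 0.556). With 1 p53 array the fit assumes that the p53 genotype varies as the LSD1 tumours do. In simulated arrays of the same size it called 0 probes at changes from 1 to 6 log2 units, so the missing calls do not show that these levels are alike.

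**Figure D3:**
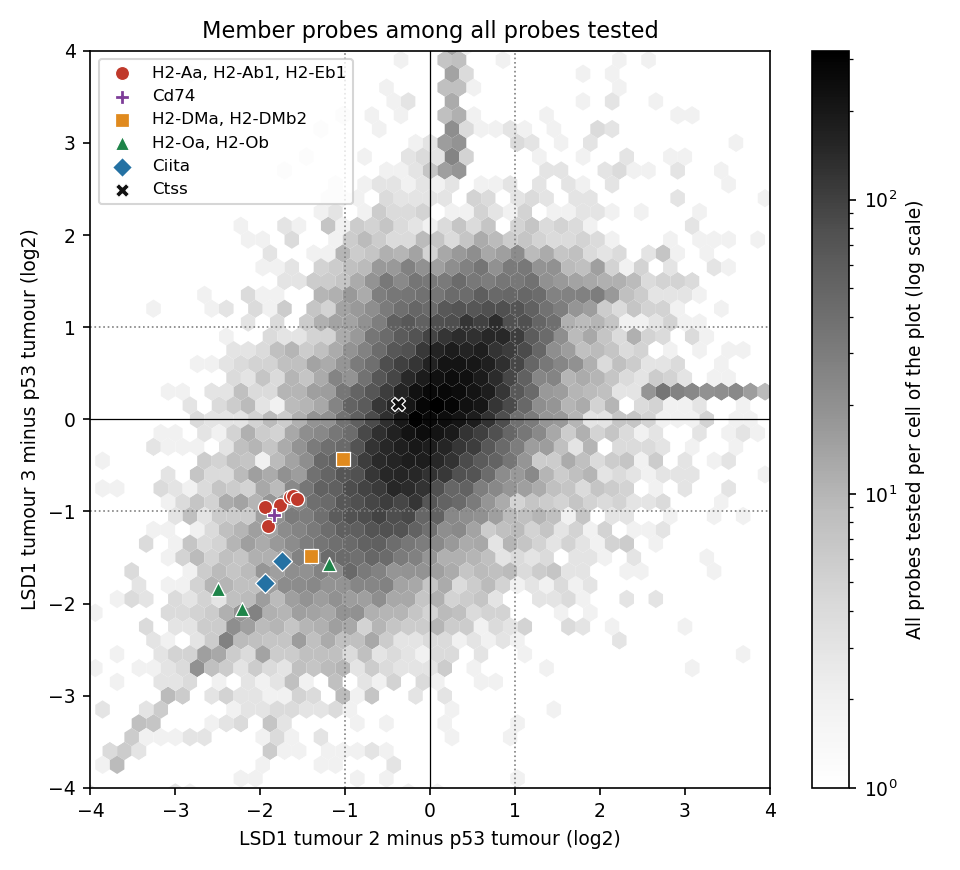
Difference of LSD1 tumour 2 (x axis) and LSD1 tumour 3 (y axis) from the p53 tumour in log2 units, for all probes tested (grey, darker where more probes lie) and for the 15 member probes by role. Dotted lines mark 2-fold, and values beyond 4 units are outside the axes. The members other than Ctss lie in the lower left, with H2-Oa, H2-Ob, H2-DMb2 and Ciita further down in LSD1 tumour 3 than the classical chains. The axes share the p53 array.

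Between the LSD1 tumours, no member probe was 2-fold apart, where 25.1% of all probes were, while at 1.5-fold 9 of 15 were, against 44.3%. The median absolute difference was 0.66 log2 for the members and 0.54 for all probes, so by this measure the members were not closer than other probes. Of the 15 probes, 13 were lower in LSD1 tumour 2 than in LSD1 tumour 3, a count of 12 with quantile normalization and 10 with the percentile over detected probes. The median of LSD1 tumour 2 minus LSD1 tumour 3 was -0.66 log2 for the members and -0.009 for all probes tested. For the classical chains and Cd74, LSD1 tumour 2 minus LSD1 tumour 3 lay between -0.997 and -0.70 log2. For H2-DMa it was -0.60, which exceeds in size the -0.43 by which LSD1 tumour 3 differed from the p53 tumour. For the brighter probes of Ciita and H2-Ob it was -0.17 each, a sign that the percentile over detected probes turned for both and quantile normalization for Ciita. H2-Oa and H2-DMb2 ran the other way, at 0.37 and 0.09. With 1 array each, no test between the LSD1 tumours was possible. They were also on different slides and scans, so differences of tumour and of slide cannot be told apart.

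Of the 10 members, 7 lie on chromosome 17, in the order H2-Oa, H2-DMa, H2-DMb2, H2-Ob, H2-Ab1, H2-Aa and H2-Eb1, and other genes are interspersed. Ciita, Cd74 and Ctss lie on chromosomes 16, 18 and 3. Between H2-Oa and H2-Eb2, 14 named genes were measured, 9 of class II and 5 others. By the brightest probe, all 9 class II genes were lower in both LSD1 tumours, and 4 of them at least 2-fold in both. Over all probes tested these shares were 32.2% and 7.31%. Of the 5 others 1 was lower in both, Tap2, and none was 2-fold lower in both. Tap1, a subunit of the class I peptide transporter, differed by -0.68 log2 in LSD1 tumour 2 and 0.41 in LSD1 tumour 3, and the immunoproteasome gene Psmb9 by -0.67 and 0.77. Psmb8 differed by -0.01 and 0.23 and Brd2, which encodes a chromatin reader, by 0.22 and -0.16. With quantile normalization the signs of Tap1 (-0.02), Psmb8 (-0.29) and Brd2 (-0.03) turned, in LSD1 tumour 3 for Tap1 and Psmb8 and in LSD1 tumour 2 for Brd2. Psmb8 also turned in the authors' value table (-0.14) and with detected probes (-0.11).

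**Figure D4:**
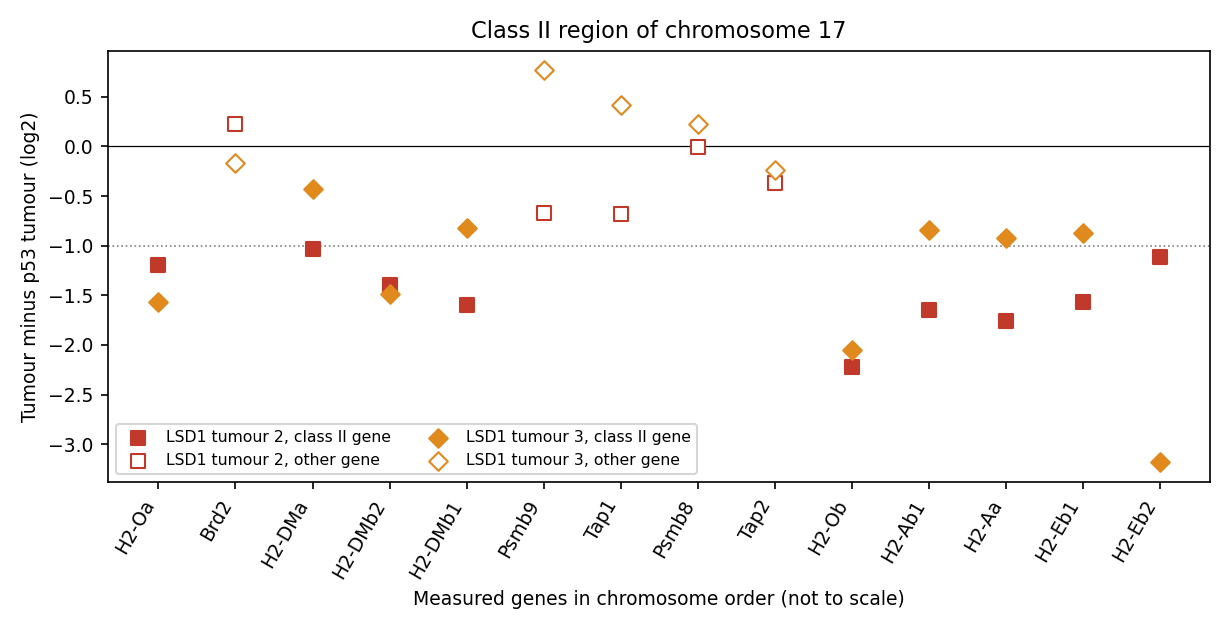
Difference from the p53 tumour (log2) of the 14 measured genes between H2-Oa and H2-Eb2 on chromosome 17, in chromosome order and not to scale, for LSD1 tumour 2 (squares) and LSD1 tumour 3 (diamonds), by each gene's brightest probe. Filled symbols are class II genes, all below 0, and open symbols are the 5 other genes, which lie between -0.68 and 0.77.

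Other genes of the class II route were taken from lists, and limma called none of their probes (lowest adjusted p 0.892). The list counts here and below take the brightest probe of each gene. Over all 32892 probes tested, 10591 were lower in both LSD1 tumours and 12024 were higher in both. Both measured class II genes outside the 10, H2-DMb1 and H2-Eb2, were lower in both LSD1 tumours. H2-Eb2, a little-expressed beta chain gene, stood at -0.03 in LSD1 tumour 2, -2.10 in LSD1 tumour 3 and 1.08 in the p53 tumour, so it was 2.17-fold and 9.09-fold lower. Its second probe was not well above background in either LSD1 tumour. Of 10 endosomal processing genes, 2 were lower and 3 higher in both LSD1 tumours, with median differences of -0.17 and 0.36 in LSD1 tumours 2 and 3. Cst3, the cathepsin inhibitor cystatin C, was 2.65-fold and 1.84-fold lower, and Ctsh, which encodes the aminopeptidase cathepsin H, 2.40-fold and 1.19-fold lower, although its dimmer probes were at 0.16 and 0.10 log2 in LSD1 tumour 3. Lgmn, the asparaginyl endopeptidase of endosomes, differed by -0.23 log2 in LSD1 tumour 2 and 1.08 in LSD1 tumour 3. Ctsl, the cathepsin that trims Cd74 in thymic epithelium, differed by 0.10 and 0.61, with the sign of LSD1 tumour 2 turned by 3 scalings (-0.03, -0.12 and -0.02). On the scale of the authors' value table the endosomal genes had 5 lower and 0 higher in both.

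The partners that Ciita binds at class II promoters showed no common direction. Of 7 such genes, 3 were lower and 3 higher in both LSD1 tumours. The X box factor genes Rfx5 and Rfxap differed by -0.69 and -0.67 and by 0.23 and 0.61 log2 in LSD1 tumours 2 and 3, and the Y box factor gene Nfyb by 0.50 and 0.53. The 4 probes of Creb1, whose product binds the X2 box, disagreed. The brightest, which the count uses, differed by -0.12 and -0.89 in LSD1 tumours 2 and 3, and the others by -1.46 and -1.14, by 0.02 and -0.37 and by 0.37 and 0.14. Among 9 genes upstream of Ciita, all 9 were lower in LSD1 tumour 2 (median -1.05) and 4 in LSD1 tumour 3 (median 0.05, or -0.31 in the authors' value table with 6 lower). Ifng, the cytokine that induces Ciita in many cells, had a level of -2.27 in LSD1 tumour 2, 1.27 in LSD1 tumour 3 and -1.23 in the p53 tumour. Against the p53 tumour this was 2.07-fold lower for LSD1 tumour 2 and 5.64-fold higher for LSD1 tumour 3. Its receptor gene Ifngr1 was 1.95-fold and 2.06-fold lower. Whether Ifng or Ifngr1 bears on the lower levels of Ciita was not tested. Irf8, a transcription factor of dendritic and B cells, was 3.18-fold and 1.77-fold lower, and Irf4, which acts in B and plasma cells, 4.47-fold and 1.13-fold lower.

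Genes that remove class II from the surface or bind it varied by tumour. Cd83, which protects class II from ubiquitination, differed by -0.64 log2 in LSD1 tumour 2 and -0.89 in LSD1 tumour 3. The ubiquitin ligase genes Marchf1 and Marchf8 differed by 0.42 and -0.58 and by -0.30 and 1.34. Cd4, the coreceptor for class II, differed by 0.63 and -0.87, and Lag3, an inhibitory receptor that binds it, by -0.58 and 0.71. No gene among these 5 was 2-fold lower, or 2-fold higher, in both.

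Genes of the class I route were mixed. Of 12 class I genes 1 was lower and 3 were higher in both LSD1 tumours, and none was 2-fold lower in both. The number lower in both was 6 with quantile normalization, 5 on the scale of the authors' value table and 4 with the percentile over detected probes. In LSD1 tumour 2, 9 were lower (median -0.34), and in LSD1 tumour 3, 11 were higher (median 0.42), a number of 6 with quantile normalization, 7 in the authors' value table and 8 with the percentile over detected probes. Nlrc5, the class I counterpart of Ciita, had levels of 1.45 and 2.96 in LSD1 tumours 2 and 3 and 2.61 in the p53 tumour. It differed by -1.16 log2 in LSD1 tumour 2 and by 0.35 in LSD1 tumour 3, where quantile normalization gave -0.00391 and the scale of the authors' value table -0.0106. The heavy chain gene H2-K1 differed by -0.72 and 0.08 (-0.13, -0.29 and -0.26 in LSD1 tumour 3 under the same scalings and with detected probes), and the chaperone genes Canx and Pdia3 by 0.63 and 0.59 and by 0.42 and 0.51.

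**Figure D5:**
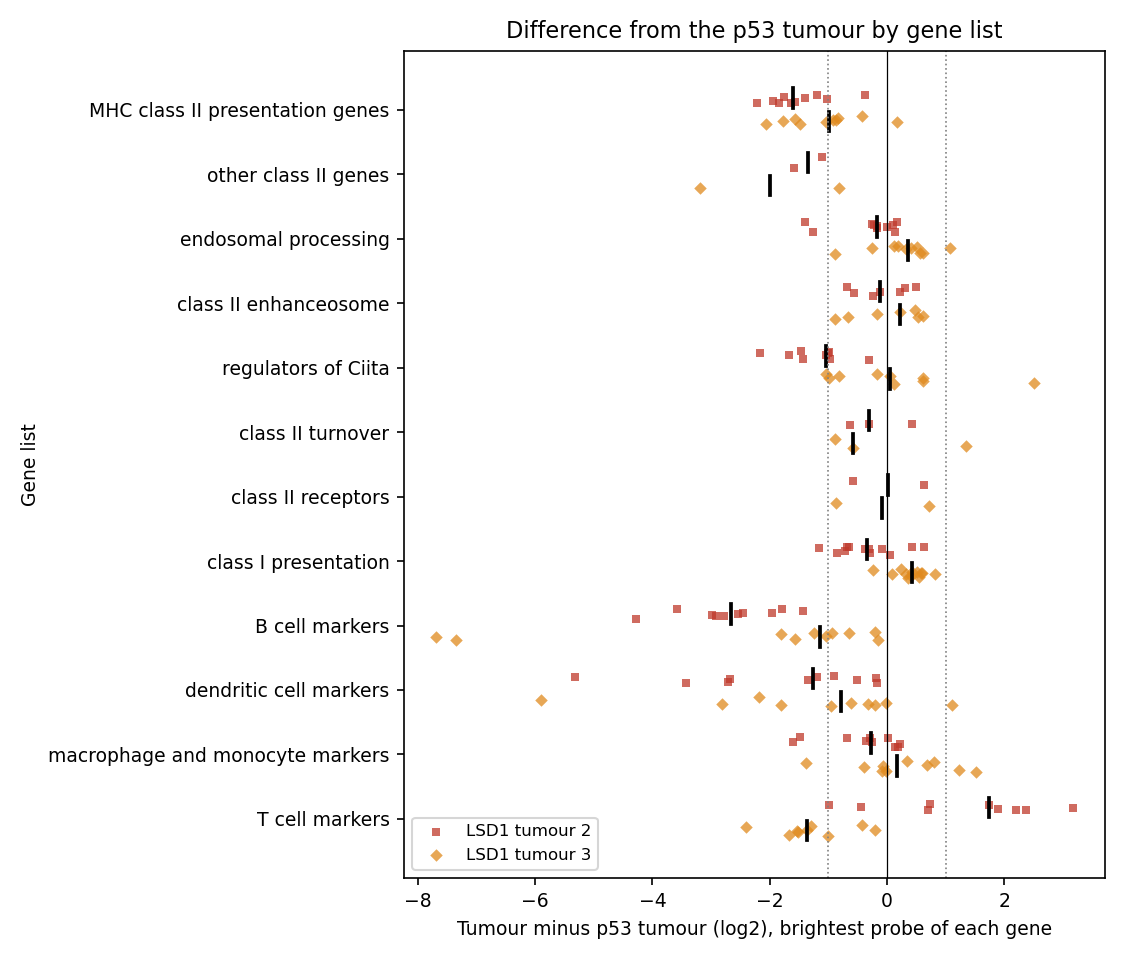
Difference from the p53 tumour (log2) for each gene list, by the brightest probe of each gene, in LSD1 tumour 2 (squares) and LSD1 tumour 3 (diamonds), with black bars at the medians and dotted lines at 2-fold. Class II members and B cell markers lie below 0 in both tumours apart from Ctss in LSD1 tumour 3, the class I medians are -0.34 and 0.42, and the T cell medians are 1.73 and -1.36. Among the lowest points, Cd209a in both tumours and Fcer2a in LSD1 tumour 3 were not well above background.

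Most markers of B cells and dendritic cells, which make class II, were lower in both LSD1 tumours alongside the members. limma called no marker of either list. All 10 B cell markers were lower in both LSD1 tumours, and 6 were at least 2-fold lower in both. Their median difference was -2.66 log2 for LSD1 tumour 2 and -1.14 for LSD1 tumour 3. Their summed scaled signal, with 1 as the 75th percentile, was 42.8 in LSD1 tumour 2, 152 in LSD1 tumour 3 and 299.7 in the p53 tumour. Fcmr, which encodes an IgM receptor, was 12.0-fold and 2.98-fold lower, and Cd22, an inhibitory receptor of B cells, 6.86-fold and 3.50-fold lower. Cr2, the complement receptor of B cells and follicular dendritic cells, was 19.5-fold and 163-fold lower. Fcer2a was 3.90-fold lower in LSD1 tumour 2. In LSD1 tumour 3 it was not well above background and at least 206-fold lower. By the brightest probe, the other 9 B cell markers were above background in all 3 tumours. The smallest differences in LSD1 tumour 3 were those of Ms4a1, Blk and Cd79b, at -0.15, -0.21 and -0.64 log2. In LSD1 tumour 2 these genes differed by -2.45, -1.79 and -2.54. Of 10 dendritic cell markers 9 were lower in both, 4 of them at least 2-fold, with medians of -1.27 and -0.79. Their sums were 144, 132 and 172 in LSD1 tumour 2, LSD1 tumour 3 and the p53 tumour, and the brightest Siglech probe dominates them. That probe differed by -0.18 and -0.33 log2, but the dimmer Siglech probe disagreed. It was not well above background in either LSD1 tumour and was at least 9.73-fold and 10.2-fold lower. Flt3, the growth factor receptor of their precursors, was 6.39-fold and 4.52-fold lower, and Clec9a, a marker of cross-presenting cells, 10.8-fold and 3.52-fold lower. Clec10a, a lectin of conventional dendritic cells, was 2.28-fold and 7.05-fold lower. Zbtb46 was the marker not lower in both. Its brightest probe differed by -0.20 log2 in LSD1 tumour 2 and 1.11 in LSD1 tumour 3. Its dimmer probe differed by -1.75 and 1.18 and was not well above background in LSD1 tumour 2. Batf3 and Itgae differed by -0.51 and -1.34 in LSD1 tumour 2 but by -0.02 and -0.20 in LSD1 tumour 3. Cd209a and Xcr1 were not well above background in either LSD1 tumour, Cd209a being at least 39.8-fold and 48.2-fold lower.

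Of 10 macrophage and monocyte markers, 3 were lower and 2 higher in both LSD1 tumours. These counts were 4 and 1 with quantile normalization, 5 and 0 on the scale of the authors' value table, where 9 were lower in LSD1 tumour 2, and 3 and 1 with the percentile over detected probes. Their sums were 99.0, 149 and 125 in LSD1 tumour 2, LSD1 tumour 3 and the p53 tumour. Adgre1, which encodes the macrophage antigen F4/80, differed by -1.61 log2 in LSD1 tumour 2 and -0.09 in LSD1 tumour 3, and the complement gene C1qb by 0.18 (-0.03 in the authors' value table) and 1.22. The scavenger receptor gene Cd163 differed by 0.22 and -1.37. T cell markers split, with 7 of 9 higher in LSD1 tumour 2 and all 9 lower in LSD1 tumour 3, and summed signals of 230.3, 51.8 and 98.6 in LSD1 tumour 2, LSD1 tumour 3 and the p53 tumour. The part of the B cell and dendritic cell markers in the members' differences was not tested.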

How the data were processed

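The scans come from Agilent Feature Extraction 11.5.1.1, as named in the submitters' processing notes. Per the file headers, the processed signal is a linear intensity, already corrected for background within each array. Per-spot flags give detection, saturation and outliers. The authors' value table holds these intensities multiplied by 1 factor an array (0.779 and 0.902 for LSD1 tumours 2 and 3, 1.06 for the p53 tumour, with column medians of 54.2, 43.5 and 64.2), and the basis of the factors is not given in the sources used here. Signals were divided by the array's 75th percentile and taken as log2, outlier spots were dropped, and spots of 1 probe were averaged. Probes were named through RefSeq accessions (GRCm38.p6 table, 25122 of 47837 identifiers matched). The 32892 probes detected (well above background) on 1 or more arrays were fitted with limma 3.58.1 in R 4.3.3 (lmFit, eBayes, Benjamini-Hochberg). Normexp used median spot and background signals. limma's p-values rest on the spread between the 2 LSD1 tumours and on a spread pooled over all probes tested. The pooled part supplies 2.34 of the 3.34 degrees of freedom, and the p53 array adds no spread of its own. "At least" folds take, for a dim probe, the higher of its own level and the lowest detected level of that array. Tested on simulated data, limma called 0 of 50 probes at each size of change. Every member was named, and from each list up to 4 genes with the largest mean difference. Siglech, Xcr1, Zbtb46, Batf3, Itgae, Ms4a1, Blk and Cd79b were chosen after the data were seen. So were the other genes between H2-Oa and H2-Eb2 and the motif cores. Members and lists were chosen with earlier results of these data known. No probe was named for H2-Ea or Trac.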

Additional observations from a re-analysis of the deposited data

How the results depend on the processing

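The count of 8 member probes lower by 2-fold or more in both LSD1 tumours was also found with normexp. With no filter on dim probes, or the filter on all 3 arrays, it stayed at 8 by construction, since all 15 member probes pass. Slide as a block compares LSD1 tumour 3 alone with the p53 tumour, which is the same as leaving out LSD1 tumour 2. The count was 12 with quantile normalization. It was 13 on the scale of the authors' value table, 13 with the 75th percentile over probes detected on all arrays, 13 at 1.5-fold, and 5 of 10 with 1 probe a gene. Leaving out LSD1 tumour 2 or LSD1 tumour 3 gave 8 or 14. No member probe was 2-fold higher in both under any alternative run. The count of member probes 2-fold apart between the LSD1 tumours was 0 under the scalings and filters run and 9 at 1.5-fold. Over all probes tested, 2404 were 2-fold lower and 1195 higher in both, against 955 and 669 with normexp, 3641 and 486 on the scale of the authors' value table, and 3290 and 605 with the percentile over detected probes. limma called 0 probes under each of the scalings, filters and probe choices run. Its count at an unadjusted p under 0.05 was 1490 as reported, 568 with 1 probe a gene, 5232 with no filter on dim probes, and between 1457 and 1806 otherwise. Ctss alone changed the sign of its mean difference, which was 0.17 log2 without LSD1 tumour 2 and -0.38 without LSD1 tumour 3. The other 14 probes kept their sign under the 4 scalings and without either LSD1 tumour. limma without 1 LSD1 tumour, or with slide as a block, leaves no residual degree of freedom and gave no test, and no comparison is left without the p53 tumour. No paired analysis was possible because the genotypes share no replicate number. The lone p53 array limits every value, while all member signals were well above background.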
